A study of Homo sapiens with 6 samples.

Results

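Respiratory complex I (NADH:ubiquinone oxidoreductase) was read in 6 RNA-seq libraries of 293T, an established line derived from human embryonic kidney. The members are the 47 rows of the gene table whose symbol is NDUF followed by A, B, C, S, V or AF and a number, with an optional L and digit, together with NDUFAB1; symbols of pseudogenes were left out. They are 47 of 61806 genes in the table. Of the 47, 37 encode nuclear subunits of the complex, 8 are the NDUFAF assembly factors, and NDUFA4 and NDUFA4L2 carry the family name without being taken as subunits. One set of cells received a plasmid labelled GFP-812 (3 libraries) and the control cells a plasmid labelled GFP (3 libraries), in both cases with a lipid transfection reagent. What the plasmid's number refers to is not explained in the labels; the series title concerns truncated NEK1, ribosomal RNA production and nuclear condensates. The labels do not tie the replicates to separate cultures, so each p-value is set by the spread among the libraries, and that spread may be technical.

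Complex I is the entry point of electrons from NADH into the respiratory chain. Its matrix arm takes electrons from NADH and passes them along iron-sulfur clusters to ubiquinone, and its membrane arm pumps protons out of the mitochondrial matrix. The core subunits carry out the chemistry, the accessory subunits surround and stabilize them, and assembly factors bind intermediates but are absent from the finished enzyme. The membrane-embedded core subunits are encoded in the mitochondrial genome, and all other subunits in the nucleus.

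Total counts were 14255148 to 17613814 per library. NEK1 was at 562.7, 518.3 and 493.7 FPKM (fragment counts scaled by exonic length and library total) in the GFP-812 libraries, against 3.82, 3.99 and 3.91 FPKM in the GFP libraries, so NEK1 was far higher in every library labelled GFP-812. GFP replicate 3 stood apart from the other GFP libraries in principal components of the genes that varied most between libraries. The first component held 29.5% of the variance of those genes. On it the GFP-812 libraries were at -10.1, -15.8 and -10.3, GFP replicates 1 and 2 at 21.3 and 12.8, and GFP replicate 3 at 2.1. On the second (19.1%) GFP replicate 3 was at -19.6 and the other 5 libraries between -4.45 and 16. Among 10 markers of differentiated kidney cells 1 reached a mean of 1 FPKM, and 2, UMOD among them, had no counts in any library; the summed level was 2.09 to 2.34 FPKM in GFP-812 libraries and 1.85 to 2.16 FPKM in GFP libraries. Of 9 markers of this line and of epithelia 5 reached that level, summing to 129.8 to 142.9 FPKM in GFP-812 libraries and 114.3 to 125.5 FPKM in GFP libraries. Of 10 markers of blood, vessel, fibroblast and other cells 1 reached it (3.08 to 3.24 FPKM in GFP-812 libraries, 2.21 to 2.94 FPKM in GFP libraries). PTPRC and CD3E, which mark leukocytes, had 3 and 1 counts over the 6 libraries. The part of these markers in the results below was not tested.

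All 47 members were tested. Of the 37 subunit genes 3 rose in GFP-812 cells, 0 fell and 34 did not pass the threshold, an adjusted p under 0.05 in edgeR's quasi-likelihood test over all genes. The 3 that rose were NDUFA1, NDUFS5 and NDUFB4, which are all in the membrane arm. The 3 are 8.11% of the subunits, and 1.18% of the 16834 genes tested rose, 2.67% fell and 3.84% changed in either direction. At an unadjusted p under 0.05 stood 8 of the 37 subunits, all higher, where 16.1% of all genes tested stood in either direction and 7.24% higher. DESeq2 and limma-voom also had none falling. Of the 8 assembly factors 0 rose and 0 fell by edgeR, DESeq2, limma-voom and limma on FPKM. None had an unadjusted p under 0.05 in these 4 tests, and DESeq2 gave no adjusted p for NDUFAF8. In bulk RNA, fewer cells of a kind and less RNA per cell cannot be told apart.

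The count of risen subunits moved with the libraries and the method. With GFP replicate 3 left out it was 6, the added ones being NDUFB10, NDUFA13 and NDUFS7, while the share of all genes that rose was 2.94%. With GFP-812 replicate 1 left out the count was 2, and with GFP replicate 1 left out 1. Over all genes tested 136 of 17239 and 78 of 17358 rose in these fits. The count was 0 when any one of GFP-812 replicate 2, GFP-812 replicate 3 and GFP replicate 2 was dropped. Over all genes the rises were then 62 of 17265, 84 of 17243 and 109 of 17304. The count was 2 with DESeq2, where NDUFS5 did not pass and 128 of all 16834 genes rose. Of the members named here, the subunits NDUFB7, NDUFS7 and NDUFA7 had no adjusted p from DESeq2. The count was 0 with limma on log2(FPKM + 1) and 1, NDUFB4, once GC content and exonic size were corrected for. Over all genes tested 3 of 16834 and 189 of 16533 rose in these fits. Over all genes 647 were called, 198 higher and 449 lower; with upper-quartile scaling 280 were higher and 339 lower.

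**Figure D1:**
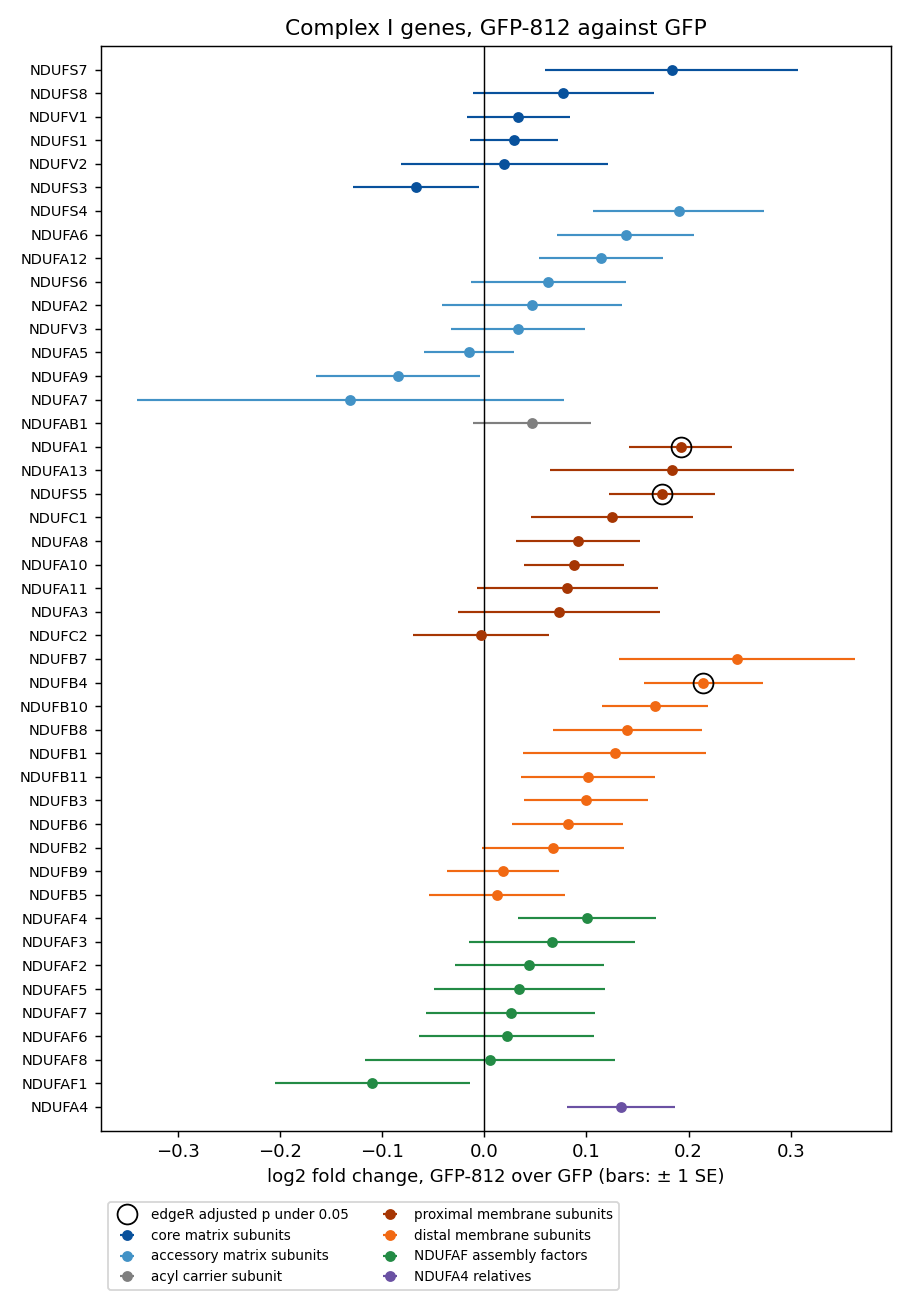
Log2 fold change (GFP-812 over GFP, edgeR) of the members, with bars of ± 1 SE, coloured by class; circles mark the 3 with an adjusted p under 0.05. NDUFA4L2, at -0.74, is left out of the plot for its few counts, and 1 other member is not shown. Of the membrane arm subunits 19 of 20 points lie above 0.

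All 3 calls were in the membrane arm, and the difference between the arms was not tested. Its 20 nuclear subunits had a median log2 fold change of 0.10, between -0.00314 for NDUFC2 and 0.25 for NDUFB7, and 19 were fitted above 0. All 11 subunits of the distal part, NDUFB1 to NDUFB11, were fitted above 0 (median 0.10), and 8 of the 9 of the proximal part (median 0.09). Over all genes tested 51.8% were fitted above 0, with a median of 0.01. Fitted directions of genes that did not pass are a description with no test, and NDUFC2 was above 0 under some other settings.

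NDUFA1 is a small membrane subunit of the proximal part whose gene lies on chromosome X (ENSG00000125356, hg38, 119871832 to 119876662, plus strand). It had the highest level of all members, 249.4, 247.4 and 263.6 FPKM in GFP-812 replicates 1, 2 and 3, against 219.8, 219.2 and 232.8 FPKM in GFP replicates 1, 2 and 3. Every GFP-812 library lay above every GFP library, and replicate 3 was the highest of each group. The difference was 14.3%, a log2 fold change of 0.19 with an SE of 0.0505 (edgeR adjusted p = 0.0165). After the GC and size correction it was 0.0902 on the log2 scale (adjusted p = 0.342). Dropping GFP-812 replicate 2 or 3 also ended the call (adjusted p = 0.0587 and 0.153), as did dropping GFP replicate 1 or 2 (adjusted p = 0.0931 and 0.0666).

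NDUFS5 is a cysteine-rich subunit on the intermembrane-space side of the proximal part (ENSG00000168653, chromosome 1, 39026318 to 39034636, plus strand). Its levels were 226.3, 206.8 and 212.9 FPKM in the GFP-812 libraries, against 192.7, 177.5 and 207.1 FPKM in the GFP libraries. In FPKM the groups overlapped, GFP replicate 3 lying just above GFP-812 replicate 2; in log2 CPM (counts relative to TMM-scaled library totals) the groups did not overlap. The log2 fold change was 0.17 (SE 0.0521, edgeR adjusted p = 0.0439). Corrected for GC content and size it was 0.0857 (adjusted p = 0.397), and of the 6 fits without 1 library the one without GFP replicate 3 kept the call (adjusted p = 0.0015, against 0.0899 to 0.284 in the other 5).

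NDUFB4, a subunit of the distal part, was the subunit still called after the GC and size correction (ENSG00000065518, chromosome 3, 120596328 to 120602507, plus strand). It stood at 44.06, 45.68 and 46.31 FPKM in the GFP-812 libraries, against 40.72, 35.03 and 42.59 FPKM in the GFP libraries. The groups did not overlap; the SD was 1.16 FPKM among GFP-812 libraries and 3.94 FPKM among GFP libraries (n = 3 each), where replicate 2 was the lowest. The log2 fold change was 0.21 (SE 0.0582, edgeR adjusted p = 0.0215), and 0.195 after the correction (adjusted p = 0.0287). The adjusted p was 0.135, 0.115 and 0.244 when GFP-812 replicate 2, GFP-812 replicate 3 and GFP replicate 2 were dropped in turn.

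Other distal subunits had groups that did not overlap without passing the test. NDUFB10, a cysteine-rich subunit and the most abundant of the distal part, stood at 94.77, 97.4 and 97.61 FPKM in the GFP-812 libraries, against 85.47, 82.83 and 92.19 FPKM in the GFP libraries (log2 fold change 0.17, SE 0.0519, edgeR adjusted p = 0.0533). It passed without GFP replicate 3 (adjusted p = 0.00531), and at 0.0317 to 0.0359 with upper-quartile scaling, a minimum mean FPKM of 1 or protein-coding genes alone. NDUFB7, also cysteine-rich, had the largest fitted difference of the subunits: 24.52, 26.45 and 26.53 FPKM in the GFP-812 libraries, against 21.07, 21.49 and 23.39 FPKM in the GFP libraries (log2 fold change 0.25, SE 0.116, edgeR adjusted p = 0.266). Its counts were 187, 221 and 250 in the GFP-812 libraries and 182, 185 and 201 in the GFP libraries. NDUFB3 and the X-linked NDUFB11 had log2 fold changes of 0.10 each (SE 0.0607 and 0.0659, edgeR adjusted p = 0.432 and 0.464). NDUFB9, the member of the distal part with the lowest level, was at 0.02.

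In the proximal part, NDUFA10, a large accessory subunit related to nucleoside kinases, stood at 5.54, 5.86 and 5.77 FPKM in the GFP-812 libraries, against 5.38, 5.36 and 5.57 FPKM in the GFP libraries. In log2 CPM its groups did not overlap, and the log2 fold change of 0.09 did not pass (SE 0.049, edgeR adjusted p = 0.378). NDUFA11, at the lowest level of that part, was at 0.08 (SE 0.0884). NDUFC2 stood at 22.2 ± 0.864 FPKM in GFP-812 cells and 22.5 ± 2.25 FPKM in GFP cells (SD, n = 3 each).

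**Figure D2:**
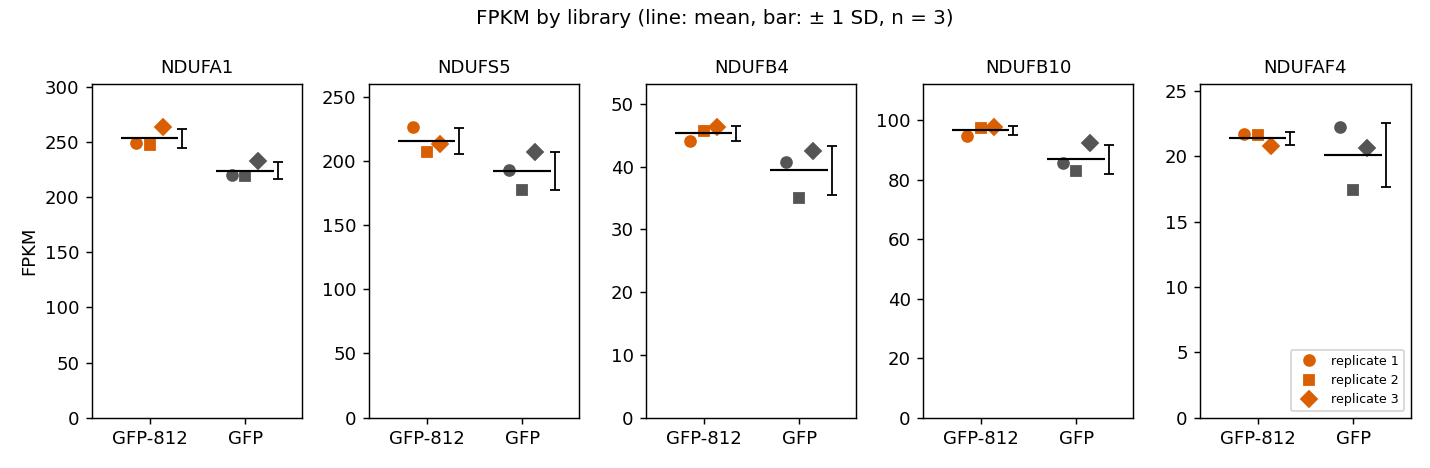
FPKM of NDUFA1, NDUFS5, NDUFB4, NDUFB10 and the assembly factor NDUFAF4 in each library, with GFP-812 left of GFP; symbols give the replicate, lines the mean and bars ± 1 SD (n = 3). GFP replicate 3 is the highest GFP library for the 4 subunits, and the groups overlap for NDUFAF4 and, just, for NDUFS5.

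In the matrix arm no subunit passed: 0 of 7 core and 0 of 9 accessory subunits by edgeR, DESeq2 or limma-voom. Of the members named here, NDUFS7 and NDUFA7 had no adjusted p from DESeq2. At an unadjusted p under 0.05 by edgeR were 3 of the 16, near the 16.1% of all genes. The median log2 fold change was 0.03 for the core and 0.05 for the accessory subunits. NDUFV1, which holds the NADH site, had the highest core level, 19.6 ± 0.299 FPKM in GFP-812 cells and 19.3 ± 0.638 FPKM in GFP cells (SD, n = 3 each), with a log2 fold change of 0.03 (SE 0.0504). NDUFS3 was fitted below 0, at -0.07 (SE 0.062), with 12.65, 11.39 and 11.58 FPKM in the GFP-812 libraries and 12.79, 12.45 and 12.35 FPKM in the GFP libraries.

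NDUFS7, a core subunit at the ubiquinone site, had the lowest core level and varied most within groups. It stood at 1.81, 2.11 and 2.42 FPKM in the GFP-812 libraries, against 1.74, 1.5 and 2.42 FPKM in the GFP libraries. Replicate 3 was highest in each group. Its log2 fold change was 0.18 (SE 0.124, edgeR adjusted p = 0.484), which became 0.403 without GFP replicate 3 (adjusted p = 0.0344) and 0.0398 without GFP replicate 2 (adjusted p = 0.929).

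Among accessory subunits of the matrix arm, NDUFS4, whose loss causes Leigh syndrome, stood at 26.05, 24.43 and 25.73 FPKM in the GFP-812 libraries, against 23.85, 19.85 and 23.65 FPKM in the GFP libraries. The groups did not overlap, with GFP replicate 2 far below the rest, and the log2 fold change of 0.19 did not pass (SE 0.0836, edgeR adjusted p = 0.224). NDUFS6, a zinc-binding subunit and the most abundant of this class, was at 38.8 ± 1.43 FPKM in GFP-812 cells and 37.5 ± 2.78 FPKM in GFP cells (SD, n = 3 each). NDUFA9, an accessory subunit near the junction of the arms, and NDUFA7 were fitted below 0, at -0.08 (SE 0.0802) and -0.13 (SE 0.209); NDUFA7 had 51 to 76 counts per library. NDUFAB1, the mitochondrial acyl carrier protein that also serves fatty acid and lipoate synthesis, was at 48.6 ± 1.27 FPKM in GFP-812 cells and 47.5 ± 4.02 FPKM in GFP cells (SD, n = 3 each; log2 fold change 0.05, SE 0.058).

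The 17 remaining members, all subunits, had log2 fold changes of -0.01 to 0.18, none with an adjusted p under 0.29, at mean levels of 5.42 to 72.6 FPKM. In log2 CPM, groups did not overlap, with GFP-812 higher, for 10 of the 37 subunits, and for 9.75% of all genes tested. No subunit had groups that did not overlap in the other direction, which held for 10.8% of all genes tested; by FPKM, NDUFA9 was at 2.69, 2.57 and 2.61 in GFP-812 libraries and 2.8, 2.73 and 2.88 in GFP libraries.

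The 8 assembly factors had log2 fold changes of -0.11 to 0.10, with a median of 0.03 against 0.08 for the subunits, a difference of 0.05 between the medians. That difference was 0.0254 with GFP replicate 1 dropped, 0.032 with GFP replicate 3 dropped, 0.0837 with GFP-812 replicate 2 dropped and 0.0236 after the GC and size correction. The factors were also at lower levels per length: in FPKM, their median was 6.29 to 6.97 in GFP-812 libraries and 6.48 to 6.81 in GFP libraries, and that of the subunits 13.8 to 14.9 in GFP-812 libraries and 12.5 to 14 in GFP libraries. The groups overlapped for every factor. Of the early factors of the matrix arm, NDUFAF3 and its partner NDUFAF4, NDUFAF4 had the highest level and the largest positive difference. It stood at 21.67, 21.66 and 20.79 FPKM in GFP-812 libraries, against 22.22, 17.42 and 20.65 FPKM in GFP libraries (log2 fold change 0.10, SE 0.0679, edgeR adjusted p = 0.486). GFP replicate 1 was the highest and GFP replicate 2 the lowest of the 6, and the log2 fold change was 0.182 with GFP replicate 1 dropped and 0.00322 with GFP replicate 2 dropped. NDUFAF3 was at 17.2 ± 0.988 FPKM in GFP-812 cells and 16.6 ± 1.19 FPKM in GFP cells (SD, n = 3 each; log2 fold change 0.07, SE 0.0813).

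NDUFAF1, a factor of the membrane arm intermediate, was the factor fitted below 0. Its levels were 4.87, 4.73 and 4.94 FPKM in the GFP-812 libraries, against 5.87, 4.92 and 5.04 FPKM in the GFP libraries (log2 fold change -0.11, SE 0.0954, edgeR adjusted p = 0.618). GFP replicate 1 stood above the other 5. NDUFAF5, which hydroxylates NDUFS7, and its partner NDUFAF8 were at 0.03 (SE 0.0836) and 0.01 (SE 0.123). NDUFAF7, a methyltransferase, was at 0.03 (SE 0.0829), NDUFAF2, a factor of the late matrix arm related to NDUFA12, at 0.04 (SE 0.0729), and NDUFAF6, at the lowest level, at 0.02 (SE 0.0857). The SEs of the factors ran from 0.0679 to 0.123, at mean levels of 2.22 to 20.7 FPKM. Those of the subunits ran from 0.0429 for NDUFS1 to 0.209 for NDUFA7, with 0.0505 for NDUFA1.

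**Figure D3:**
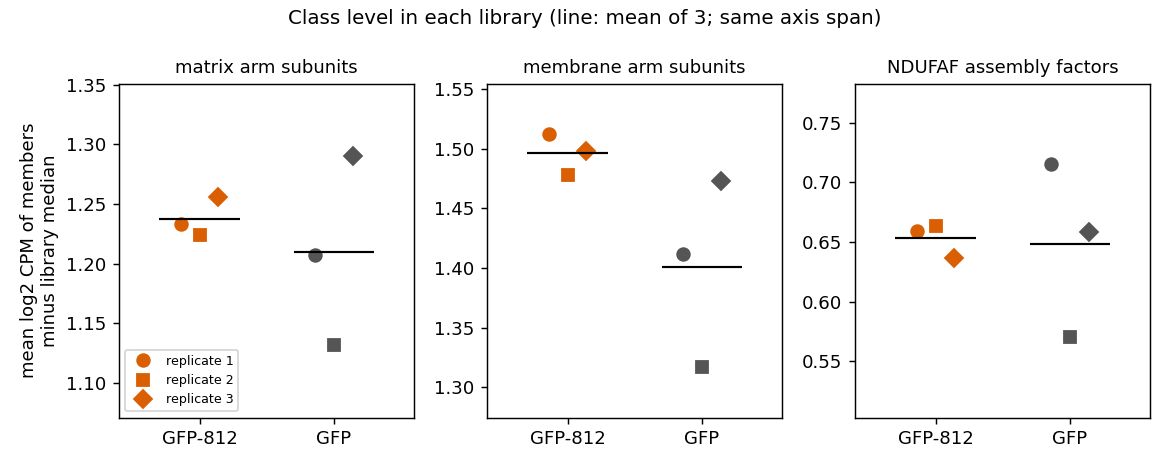
Mean log2 CPM of the members of each class minus the library's median over all genes tested, in each library; the y axes differ in position and share one span, and lines are means of 3. GFP replicate 3 is the highest library for the matrix arm (1.29) and lies just below the GFP-812 libraries for the membrane arm (1.473, against 1.478 to 1.512 in GFP-812).

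As class means, the groups of libraries overlapped for the subunits and for the factors. The subunit level, as mean log2 CPM minus the library median, was 1.41, 1.39 and 1.41 in the GFP-812 libraries, against 1.34, 1.25 and 1.41 in the GFP libraries. GFP replicate 3 was level with the highest GFP-812 libraries, and GFP replicate 2 far below the rest. GFP replicate 2 was the lowest of the 6 libraries for 21 of the 37 subunits, and GFP replicate 3 was the highest of the GFP libraries for 24. The level of the assembly factors was 0.659, 0.664 and 0.636 in the GFP-812 libraries, and 0.716, 0.57 and 0.658 in the GFP libraries. The distance from factors up to subunits was 0.748, 0.722 and 0.774 in the GFP-812 libraries, and 0.627, 0.684 and 0.755 in the GFP libraries, so that here too GFP replicate 3 lay among the GFP-812 libraries. The spread of this distance between replicates was 0.0489 (pooled SD), close to the difference of the medians.

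The subunits made up 0.226% of counts in the first GFP-812 library (95% interval 0.223% to 0.228%, Clopper-Pearson), 0.224% in the second (0.222% to 0.227%) and 0.224% in the third (0.222% to 0.226%). The GFP libraries had 0.214% (0.211% to 0.216%), 0.206% (0.204% to 0.208%) and 0.224% (0.222% to 0.226%). The intervals of GFP replicate 3 and the GFP-812 libraries overlapped. They cover counting error only.

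The members that rose are shorter than most genes. Exonic sizes in the table are 421 bases for NDUFA1, 548 for NDUFS5 and 1877 for NDUFB4, against a median of 4862 over all genes tested. The median was 2280 for the membrane arm, 4790 for the matrix arm and 3820 for the assembly factors. Across the 37 subunits the log2 fold change had a Spearman correlation of -0.469 with exonic size, 0.386 with mean FPKM and 0.272 with GC content. Across all genes tested the correlations were -0.119 for size, 0.104 for GC content and -0.131 for mean log2 CPM. FPKM is divided by exonic size and CPM is not, so the correlations with level cannot be compared. The genes in each correlation share the same 6 libraries. After the correction for GC content and size the subunit median was 0.05, that of the membrane arm 0.08 and that of the matrix arm 0.02, with 19 of 20 and 11 of 16 fitted above 0, and the assembly factor median stayed at 0.03.

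**Figure D4:**
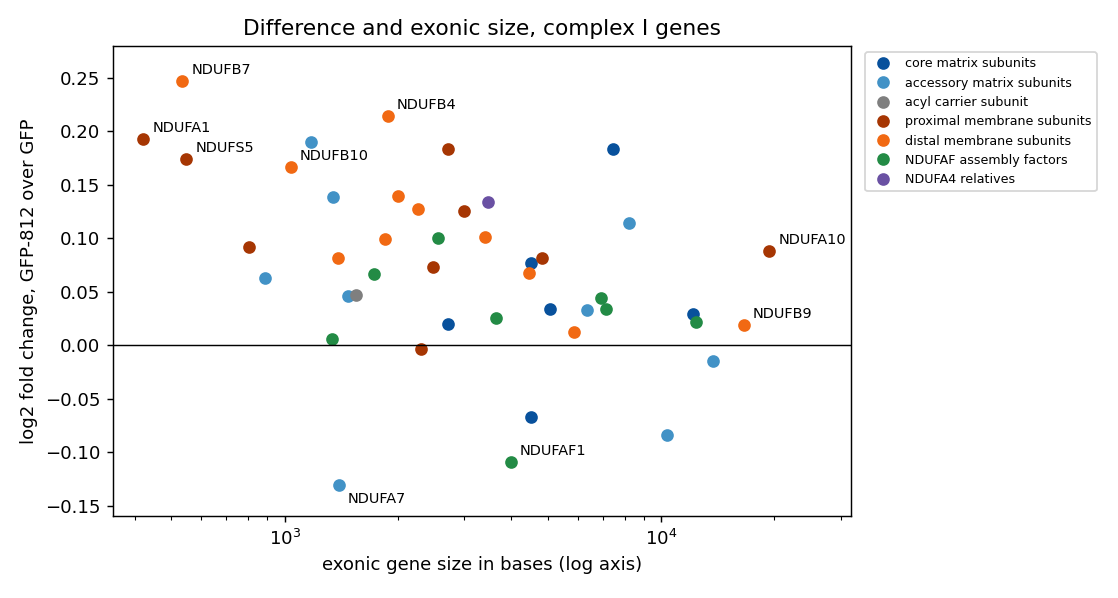
Log2 fold change (GFP-812 over GFP) against exonic gene size on a log axis for the members, coloured by class; NDUFA4L2 and 1 other member are left out. The shortest members, NDUFA1, NDUFB7 and NDUFS5, lie at 0.17 to 0.25, and the longest, NDUFA10 and NDUFB9, at 0.09 and 0.02.

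Reads of some members cannot be assigned with certainty, since whether counting used strand is not given in the sources used here. Gene spans of 24 of the 37 subunits and 5 of the 8 assembly factors overlap another gene of the table, and 18 subunits and 2 factors have a pseudogene of their own symbol. NDUFA1, NDUFS5, NDUFB4 and NDUFB10 overlap no other gene. NDUFA1 has no such pseudogene, and the pseudogenes of NDUFS5 (6), NDUFB10 (2) and NDUFB4 (12) held 0%, 0% and 0.734% of the member's own counts. The largest share was that of NDUFV2, whose pseudogene held 4.8%.

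The sequence before the start is shown for the risen members that could be matched, with others beside them. RefSeq windows of 250 bases before to 50 bases after the start (GRCh38.p14) matched 39 of the 47 members; NDUFS5, NDUFC2, NDUFB5, NDUFB9, NDUFAF6, NDUFA4 and NDUFA4L2 were among those not matched. The 180 bases before the start follow for NDUFA1 (chrX:119871652-119871831, plus strand) and NDUFB4 (chr3:120596156-120596335, plus strand), which rose, for NDUFB10 (chr16:1959358-1959537, plus strand), the next by p, and for NDUFAF4 (chr6:96897892-96898071, minus strand), the assembly factor with the largest positive difference. Capitals mark letters of 4 motifs searched on both strands: the palindrome of NRF1, a known activator of respiratory genes, whose letters are the capitals in NDUFB4, CCGGAAG of ETS factors such as GABPA, AAGATGGCG of YY1, and GGGCGG of SP1.
NDUFA1: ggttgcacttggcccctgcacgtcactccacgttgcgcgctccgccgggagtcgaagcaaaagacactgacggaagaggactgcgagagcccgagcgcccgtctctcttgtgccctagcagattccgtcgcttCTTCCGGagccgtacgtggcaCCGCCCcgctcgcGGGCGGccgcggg
NDUFB4: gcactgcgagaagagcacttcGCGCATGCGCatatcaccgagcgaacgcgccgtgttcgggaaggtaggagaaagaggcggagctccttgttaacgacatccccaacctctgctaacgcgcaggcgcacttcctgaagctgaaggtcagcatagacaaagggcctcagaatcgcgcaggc
NDUFB10: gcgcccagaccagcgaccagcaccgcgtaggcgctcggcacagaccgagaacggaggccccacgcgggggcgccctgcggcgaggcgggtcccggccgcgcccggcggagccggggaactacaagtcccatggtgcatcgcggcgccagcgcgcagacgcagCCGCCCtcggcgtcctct
NDUFAF4: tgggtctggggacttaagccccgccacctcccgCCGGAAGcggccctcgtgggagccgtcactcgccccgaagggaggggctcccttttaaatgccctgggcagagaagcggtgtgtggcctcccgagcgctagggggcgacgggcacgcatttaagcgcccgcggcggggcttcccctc

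The 4 windows differ in what they hold. NDUFA1 has the ETS letters 47 bases before the start and the SP1 letters 26 and 13 bases before, NDUFB4 has the NRF1 letters 159 bases before, NDUFB10 has SP1 letters alone and NDUFAF4 has ETS letters alone. Over the full 300-base windows the NRF1 letters were in 2 of 32 subunit promoters (6.25%), 1 of 7 assembly factor promoters (14.3%) and 1.36% of 27305 promoters in all. The YY1 letters were in 5 of 32 subunit promoters (15.6%), 0 of 7 factor promoters and 1.85% of all. The ETS letters were in 5 of 32 (15.6%), 1 of 7 (14.3%) and 10.7% of all, and the SP1 letters in 20 of 32 (62.5%), 2 of 7 (28.6%) and 44.6% of all. Among members the letters of different motifs overlapped in 1 place, in NDUFS3. The promoters in all include those of noncoding genes, and a match is a description of letters.

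NDUFA4 and NDUFA4L2 share the family name. NDUFA4 is now assigned to cytochrome c oxidase, and NDUFA4L2 is a paralog known to be induced by hypoxia. NDUFA4 stood at 31.21, 28.68 and 28.46 FPKM in the GFP-812 libraries, against 26.06, 26.04 and 29.05 FPKM in the GFP libraries (log2 fold change 0.13, SE 0.0531, edgeR adjusted p = 0.16). GFP replicate 3 lay among the GFP-812 libraries. NDUFA4L2 had 6, 7 and 9 counts in the GFP-812 libraries, against 11, 15 and 12 counts in the GFP libraries. It passed the filter on low counts only through the GFP libraries, so its direction follows in part from the filter, and its log2 fold change of -0.74 did not pass (SE 0.489, edgeR adjusted p = 0.469). Its span overlaps SHMT2.

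Partners of the complex were read from lists chosen with earlier results of these data known. The 7 subunits encoded in the mitochondrial genome had log2 fold changes of -0.06 to 0.08, 0 past the threshold and 0 at an unadjusted p under 0.05 by edgeR or DESeq2, with 1 at an unadjusted p under 0.05 by limma-voom. After the GC and size correction 1 of them, MT-ND1, fell (-0.12, SE 0.0369, edgeR adjusted p = 0.0409), and it also passed with GFP replicate 3 dropped (-0.10, edgeR adjusted p = 0.0397). MT-ND4L, the one with the smallest p, was at 1540 ± 70.6 FPKM in GFP-812 cells and 1470 ± 140.9 FPKM in GFP cells (SD, n = 3 each). Of 12 assembly factors with other names, such as ACAD9 and ECSIT, 0 passed (1 at an unadjusted p under 0.05 by edgeR, DESeq2 and limma-voom), with a median of 0.01. TIMMDC1, an assembly factor of the membrane arm, stood at 33.8 ± 0.765 FPKM in GFP-812 cells and 31.4 ± 0.545 FPKM in GFP cells (SD, n = 3 each; log2 fold change 0.12, SE 0.0518, edgeR adjusted p = 0.221).

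Among nuclear genes of the other respiratory complexes, calls were in the same direction as in the membrane arm. With all 6 libraries 1.18% of the 16834 genes tested rose and 2.67% fell. Of the 10 complex IV subunits 3 rose, 0 fell and 7 did not pass (median 0.13): COX6C (log2 fold change 0.19, SE 0.0502), COX7B (0.16, SE 0.0498) and COX4I1 (0.15, SE 0.0446). Of these 10, DESeq2, median-of-ratios scaling and total-count scaling each called 1, the GC and size correction 2 and limma-voom 4. Over all genes these settings called, in that order and in either direction, 506, 648, 736, 683 and 669. They tested 16834 genes each, and 16533 with the GC and size correction. Of the 9 complex III subunits 1 rose, UQCRH (0.16, SE 0.0418; median 0.07), of the 15 complex V subunits 1 rose, ATP5MC1 (0.26, SE 0.0666; median 0.08), and of the 8 complex II genes 0 passed by edgeR, DESeq2 or limma-voom, with 0 at an unadjusted p under 0.05 (median 0.04). The GC and size correction left 0 calls in complex III and 1 in complex V, and limma on FPKM 0 in complexes III, IV and V. Over all genes limma on FPKM called 4 of 16834. Without GFP replicate 3, 5 complex IV, 1 complex III and 4 complex V genes were called, and 1317 of all 17259 genes tested. With replicate 2 of either group dropped, 0 genes of these 3 complexes were called. Over all genes 209 of 17265 were called without GFP-812 replicate 2 and 414 of 17304 without GFP replicate 2. When GFP-812 replicate 1, GFP-812 replicate 3 and GFP replicate 1 were dropped in turn, the counts were 1, 0 and 1 for complex IV, 0, 1 and 0 for complex III, and 1, 1 and 0 for complex V. Over all genes the counts were then 475 of 17239, 292 of 17243 and 263 of 17358.

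Among 9 transcriptional regulators of respiratory genes 0 rose, 1 fell and 8 did not pass, with a median of -0.04 and 7 of the 9 fitted below 0. At an unadjusted p under 0.05 stood 4, all lower: PPRC1, GABPB1 (-0.16), TFAM (-0.09) and YY1 (-0.09). Of all genes tested 16.1% stood there in either direction and 7.24% higher, the rest of the 16.1% being lower. Past the adjusted threshold 2.67% of all genes tested fell. Fitted above 0 were 51.8% of all genes tested, and 8106 of 16834 were fitted below 0. The gene that fell was PPRC1, a coactivator of the PGC-1 family, at 9.45, 9.21 and 9.22 FPKM in the GFP-812 libraries, against 11.23, 10.99 and 10.98 FPKM in the GFP libraries (log2 fold change -0.24, SE 0.0581, edgeR adjusted p = 0.00805). Within each group the libraries differed by less than the distance between the groups, GFP replicate 3 included. The call ended when GFP-812 replicate 2, GFP-812 replicate 3 or GFP replicate 1 was dropped (adjusted p = 0.0782, 0.0705 and 0.0586) and with limma on log2(FPKM + 1) (0.179). With GFP replicate 3 dropped, 3 genes of this list were called, and 1317 of all 17259 genes tested. With all 6 libraries 647 of 16834 genes were called.

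**Figure D5:**
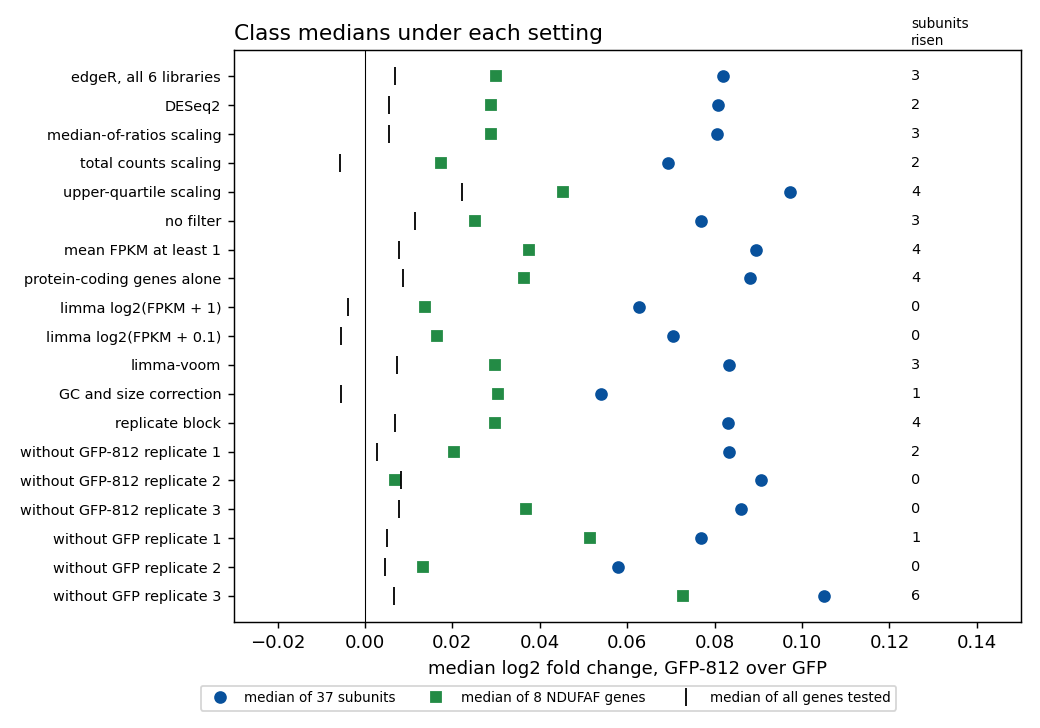
Median log2 fold change (GFP-812 over GFP) of the 37 subunits, of the 8 NDUFAF genes and of all genes tested under each setting, with the number of risen subunits at the right. The subunit median lies between 0.054 and 0.105 in the fit to all 6 libraries and its 18 alternatives, and above that of the NDUFAF genes in each.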

How the data were processed

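The submitters' processing notes name HISAT2 2.2.1, HTSeq 0.6.1, cutadapt 1.9.1, FastQC 0.10.1 and build hg38; the annotation release and strand setting were not given in the sources used here. Per the labels' protocols, poly(A) RNA was fragmented and copied from random primers. The authors deposited raw counts per gene and FPKM; count, exonic size and library total returned the FPKM within 0.0051 for 100% of values. Groups and replicate numbers are those of the sample titles. Replicates differed by more than counting noise (chi-square per gene 2.12 to 4.01).

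Counts were tested with edgeR 4.0.16 in R 4.3.3 (filterByExpr, TMM, quasi-likelihood test, group as the single term, 2-sided, Benjamini-Hochberg over 16834 genes); SEs were taken from the F statistic. The code was tested on simulated data. Alternatives used DESeq2 1.42.0, limma 3.58.1 on log2(FPKM + 1) and log2(FPKM + 0.1), limma-voom, other scalings and filters, a spline correction (4 degrees of freedom each) for exonic size and the GC content of the longest GENCODE transcript, the replicate block, and each library left out. Gene types came from GENCODE, not from the table. Pairing was checked by the correlation of same-numbered libraries' deviations.

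The members and lists were chosen with earlier results of these data known, so no test over a list is given. Named members are those past the threshold, those whose groups do not overlap, the extremes of level and of difference in each class, the assembly factors and the NDUFA4 genes (30 of 47); from other lists, those past the threshold up to 4, or the smallest p. The values of 1 member that the rule names are not reported here; it stays in the counts and medians.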

Additional observations from a re-analysis of the deposited data

How the results depend on the processing

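The subunit median kept its sign in all 18 alternative fits and the assembly factors had 0 calls in each; the pooled SD between replicates was 0.0572 for the subunit level and 0.0529 for that of the factors. Limma on log2(FPKM + 1) or log2(FPKM + 0.1) called 4 genes in all and 0 subunits, with 2307 and 2108 genes under 0.05 before adjustment (edgeR 2717) and 4 and 3 subunits. The GC and size correction called 1 subunit. Leaving out each library in turn gave 209 to 1317 genes called in all and 0 to 6 subunits. The alternatives for complexes III to V and the regulators were chosen after seeing the data. The 4 subunits with no overlapping gene and no pseudogene, NDUFA1, NDUFB7, NDUFS4 and NDUFV3, had a median of 0.192, against 0.082 for all 37. Their exonic sizes are 421, 535, 1174 and 6342 bases, and the part of size in this median was not tested.

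With the replicate block 4 subunits and 777 genes were called, NDUFB10 being the subunit gained (adjusted p = 0.0399). Same-numbered libraries had correlations of deviations of 0.0318, -0.0102 and 0.00614, and 2 of 6 libraries correlated best with their own number, so the numbers were not taken as pairs.

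Directions that changed belong to members near 0, and the cause was not tested. NDUFAF8 was at -0.00678 with total counts, -0.00783 and -0.00846 with limma at pseudocounts 1 and 0.1, and -0.0671 after the GC and size correction, where NDUFAF3 was at -0.00187 and NDUFS6 at -0.00798. NDUFC2 was at 0.0121 with upper-quartile scaling, 0.00428 at a mean FPKM of at least 1, 0.00304 over protein-coding genes and 0.000116 with limma-voom. Leaving out 1 library gave -0.0185 to 0.106 for NDUFAB1, -0.0127 to 0.113 for NDUFAF2, -0.0315 to 0.0968 for NDUFAF5, -0.0456 to 0.103 for NDUFAF6, -0.0272 to 0.0595 for NDUFAF7, -0.0829 to 0.0679 for NDUFAF8, -0.0302 to 0.0861 for NDUFB9 and -0.0857 to 0.0564 for NDUFC2. Counts were lowest for NDUFA4L2 and NDUFA7 (60 and 378 over the 6 libraries).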

Other observations

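Suppliers of the cofactors of complex I were also read. Of 15 genes of iron-sulfur cluster assembly, which builds the clusters of the matrix arm, 0 passed edgeR, DESeq2 or limma-voom and 1 had an unadjusted p under 0.05 in each, with a median log2 fold change of 0.001. The one with the smallest p, GLRX5, a mitochondrial glutaredoxin, stood at 29.73, 28.34 and 28.03 FPKM in the GFP-812 libraries, against 24.82, 25.14 and 27.48 FPKM in the GFP libraries (log2 fold change 0.16, SE 0.0586, edgeR adjusted p = 0.108). Its groups did not overlap, with GFP replicate 3 nearest to GFP-812. Of 11 genes of ubiquinone synthesis 0 passed by the same tools (at an unadjusted p under 0.05 stood 1 lower by edgeR, PDSS1, 0 by DESeq2 and 1 higher by limma-voom, COQ5), with a median of -0.00219. PDSS1, which makes the side chain of ubiquinone, was at 18.45, 19.45 and 20.86 FPKM in the GFP-812 libraries, against 22.83, 22.03 and 20.7 FPKM in the GFP libraries (log2 fold change -0.14, SE 0.0711, edgeR adjusted p = 0.309), and its groups overlapped at replicate 3 of each. SDHA, the flavoprotein of complex II, was at 6.68 ± 0.0854 FPKM in GFP-812 cells and 6.27 ± 0.478 FPKM in GFP cells (SD, n = 3 each; log2 fold change 0.10, SE 0.0623).

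Of the cell markers 3 passed edgeR, all higher, and 1 passed DESeq2. By edgeR these were 2 of the 9 line and epithelial markers and 1 of the 4 tested markers of other cells. Of the 2 tested kidney markers 0 passed, and 1.18% of all genes tested rose. The 3 are named because they passed. NEFM and NEFL, neurofilament genes that this line expresses, had log2 fold changes of 0.30 (SE 0.0458) and 0.17 (SE 0.0503). ACTA2, a smooth muscle actin, was at 0.45, 0.34 and 0.36 FPKM in the GFP-812 libraries, against 0.1, 0.1 and 0.17 FPKM in the GFP libraries. It had 72 counts over the 6 libraries and passed the filter on low counts only through the GFP-812 libraries. The direction of ACTA2 therefore follows in part from the filter. Whether these 3 markers move with the complex I genes was not tested.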
